A study of Homo sapiens with 24 samples.

Results

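The genes described here are 10 heat shock genes measured by RNA sequencing in 24 libraries of cultured human cells: HSPA6, HSPA1A, HSPA1B, HSPA8, HSPH1, HSP90AA1, DNAJB1, HSPB1, HSPD1 and BAG3. They are 10 of the 60236 genes in the table, found by their symbols, each of which had 1 Ensembl identifier. HSPA6 was selected on its measured level, because it is higher with SF3B2 in A549, and the other members were taken as heat shock genes beside it. The comparisons of SF3B2 in A549 are therefore a description here, without a test.

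The libraries came from 2 cell lines, A549, a line from a lung adenocarcinoma, and HEK293T, a line from embryonic kidney. Each line was transfected with 1 of 4 plasmids with a Lipofectamine reagent and collected after 48 hours, with 3 biological replicates in each of the 8 groups. The snaR-A plasmid makes the small noncoding RNA snaR-A from a U6 promoter, which RNA polymerase III reads, and the scramble plasmid, its control, makes a scrambled form of that RNA from the same promoter. The SF3B2 plasmid makes SF3B2, a protein of the U2 snRNP of the spliceosome, and the eGFP plasmid (GFP in the sample names) makes a green fluorescent protein. Both are pcDNA-type vectors for proteins, so that eGFP is the control of the SF3B2 vector and differs from the scramble plasmid in its promoter and in the kind of RNA made. All groups share the transfection, and no library of untransfected cells was analysed. Total counts per library ranged from 195185935 to 260878271, and 3 counts corresponded to 0.0115 to 0.0154 CPM, the count scaled to the total of its library. Levels are given as CPM scaled over all 24 libraries by the trimmed mean of M values (TMM).

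Heat shock proteins are chaperones that hold, fold and refold other proteins. HSP70 proteins bind exposed stretches of a protein in a cycle driven by ATP, J-domain proteins such as DNAJB1 deliver the client and start the cycle, and nucleotide exchange factors such as HSPH1 and BAG3 release it. In stressed cells the transcription factor HSF1 forms trimers, binds heat shock elements in promoters and drives the inducible members. HSPA6, also called HSP70B′, is a strictly inducible HSP70 that is close to silent in unstressed cells, whereas HSPA8 is the abundant constitutive HSP70.

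The promoters that carried the letters of a heat shock element are shown first, because the members are known as targets of one factor and these letters were not common to all of them. A heat shock element is a row of inverted 5-base units, and the search was for 3 units, written GAANNTTCNNGAA or TTCNNGAANNTTC, each the reverse complement of the other, so that both strands were covered. In the 250 bases before each start site in the RefSeq promoters (GRCh38.p14), 155 of 35116 promoters (0.441%) held a match. All 10 members had a promoter entry, and 4 held a match: HSPA6, HSPA8, HSP90AA1 in 1 of its 2 promoters and HSPD1 in 1 of its 2 promoters. The matches stand in capitals below, 5′ to 3′ on the strand of the gene.
HSPA6, chr1:161524446-161524498, + strand: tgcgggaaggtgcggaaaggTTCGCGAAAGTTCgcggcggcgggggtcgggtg
HSPA8, chr11:123062159-123062386, - strand: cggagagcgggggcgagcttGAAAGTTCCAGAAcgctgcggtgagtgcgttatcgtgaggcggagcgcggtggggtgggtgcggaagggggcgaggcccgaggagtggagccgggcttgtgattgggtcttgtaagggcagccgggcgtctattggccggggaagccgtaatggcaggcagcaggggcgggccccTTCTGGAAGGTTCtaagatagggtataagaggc
HSP90AA1, chr14:102087100-102087152, - strand: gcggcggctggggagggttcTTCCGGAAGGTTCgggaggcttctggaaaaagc
HSPD1, chr2:197500048-197500090, - strand: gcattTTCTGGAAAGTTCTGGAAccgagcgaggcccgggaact
The HSPA6 match began 74 bases before the start site, and the 2 matches of HSPA8 began 230 and 55 bases before it. In HSPD1 the capitals are 2 overlapping matches. Of the other members, HSPA1A, HSPA1B and HSPB1 each held 1 match to the looser form of 2 units (GAANNTTC or TTCNNGAA, in 11.6% of all promoters, and part of every 3-unit match), and DNAJB1 held 2 in 1 of its 3 promoters. The promoter entries of HSPH1 and BAG3 held neither form, which says only that these letters were not in this window.

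Some libraries stood apart from their groups. In A549, scramble replicate 3 held SF3B2 at 8773 CPM, against 371 and 340 CPM in the other scramble libraries and 45563 to 48884 CPM in the libraries of the SF3B2 plasmid. Among the HEK293T libraries, eGFP replicate 3 held the 10 A549 marker genes at a summed 689 CPM, against 4.1 and 3.96 CPM in the other eGFP libraries and 18568 to 20824 CPM in A549. The most abundant of these markers, the aldehyde dehydrogenase ALDH1A1, was at 422 CPM in that library, and no marker was at 0. HEK293T SF3B2 replicate 3 held the same markers at 22 CPM, above the 6.66 and 6.39 CPM of its group. In order of replicate number, the HEK293T SF3B2 libraries held SF3B2 at 37668, 29024 and 24053 CPM. HSPD1, HSP90AA1, HSPH1 and BAG3, given below, fell in the same order. HSPA6, HSPA1A and DNAJB1 rose in that order, HSPA8 and HSPB1 did neither, and a link was not tested. A549 snaR-A replicate 3 has label fields that name both lines, and its markers (A549 18846 CPM, HEK293T 62 CPM) were in the range of the other A549 libraries. Counts of calls are given with and without A549 scramble replicate 3 and HEK293T eGFP replicate 3 where they change, and the source of their reads was not tested.

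The table does not measure all members equally well. HSPA6 (ENSG00000173110, chromosome 1, 161524540 to 161526894, + strand, hg38) is a single exon of 2355 bases. Of its stretches of 31 bases, 57.1% also occur in another gene, nearly all in the neighbouring pseudogene HSPA7, whose transcript is 98.2% identical. HSPA7 was nevertheless listed at no more than 0.0385 CPM (11 counts) in any library, whereas HSPA6 had 67 to 1701 counts. HSPA1A and HSPA1B, neighbours on chromosome 6 that code for the stress-inducible HSP70, share 76% of HSPA1A's stretches, and hg38 carries 4 further copies of each on 4 alternate sequences of that region. The table holds 5333 identifiers without a symbol, with 2.53% of all counts, so that reads of the pair may stand under other identifiers. HSPA1B was listed at 0 in 23 of the 24 libraries and at 0.506 CPM in HEK293T snaR-A replicate 3. It was too low to be tested, and neither gene's level can be read as its own. Of the remaining members, BAG3 shared none of its stretches, HSPH1 0.282%, DNAJB1 5.13%, HSPB1 9.01%, HSPD1 15.8%, HSPA8 21.4% and HSP90AA1 26.4%, and for the last 5 the gene sharing most was a pseudogene copy.

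HSPA6 was highest with SF3B2 in A549, where the 3 libraries stood at 8.64, 8.42 and 8.89 CPM. The A549 eGFP libraries followed at 2.29, 2.24 and 2.12 CPM. In A549 scramble the values were 0.721, 0.669 and 2.08 CPM, the last in the library with SF3B2 reads. These groups did not overlap, and scramble replicate 3 lay just under the eGFP libraries and well above the other scramble libraries. With snaR-A in A549 HSPA6 stood at 0.596, 0.673 and 0.768 CPM, across the range of scramble replicates 1 and 2. In HEK293T the eGFP libraries held 0.787, 0.93 and 0.801 CPM and the SF3B2 libraries 0.628, 0.673 and 0.752 CPM. The HEK293T scramble libraries held 0.252, 0.234 and 0.287 CPM and the snaR-A libraries 0.215, 0.319 and 0.255 CPM. The order of the group means was A549 SF3B2 (8.65 CPM), A549 eGFP (2.22), A549 scramble (1.16), HEK293T eGFP (0.839), HEK293T SF3B2 (0.684), A549 snaR-A (0.679), HEK293T snaR-A (0.263) and HEK293T scramble (0.258). The place of A549 scramble rests on replicate 3, and without it the mean of that group was 0.695 CPM, below HEK293T eGFP. With all libraries, neighbours that overlapped were A549 scramble with HEK293T eGFP, HEK293T SF3B2 with A549 snaR-A, and HEK293T snaR-A with HEK293T scramble.

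**Figure D1:**
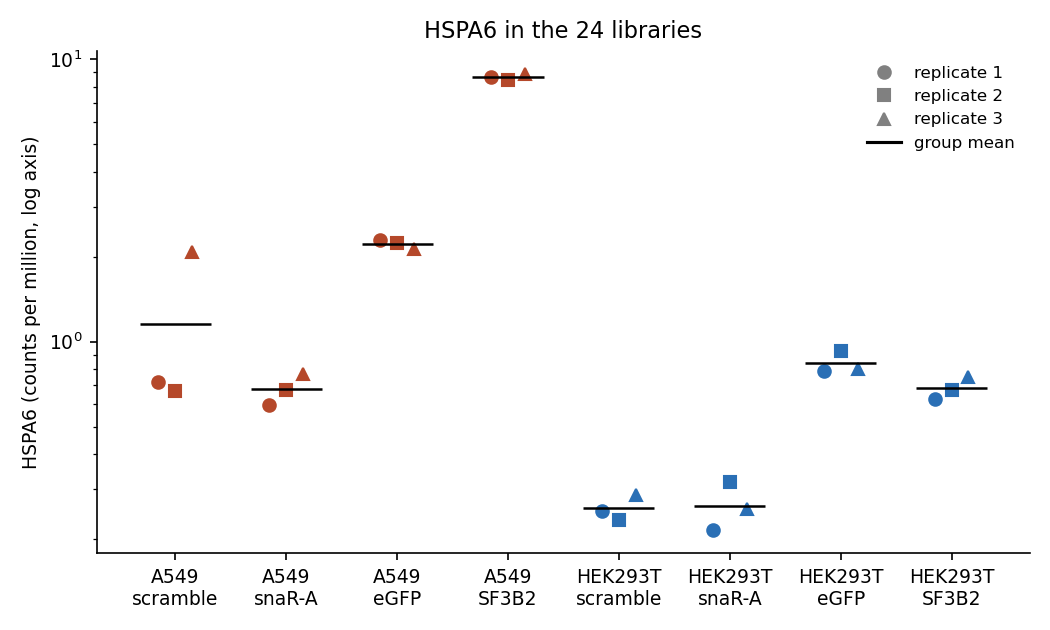
HSPA6 in each library, in CPM on a log axis; points are libraries, shaped by replicate number, and black lines are the means of 3 libraries. The A549 SF3B2 libraries lie between 8.42 and 8.89 CPM, and A549 scramble replicate 3 lies at 2.08 CPM, above the other libraries of its group.

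As a description of the contrast that chose it, HSPA6 in A549 was 3.93-fold higher with SF3B2 than with eGFP (log2 fold change 1.98, standard error (SE) 0.08, n = 3 against 3). Against scramble the log2 difference was 2.91 (SE 0.43), and it was 3.63 without scramble replicate 3. A549 eGFP stood above scramble by 0.94 (SE 0.42), and by 1.67 without that replicate. No test is given for these values, and they share the eGFP or scramble libraries. Interferon response genes also differed between these groups. The 14 genes listed, most of them antiviral effectors, summed to 4007 to 5123 CPM with eGFP, 1083 to 1313 CPM with SF3B2, 618 to 703 CPM with scramble and 700 to 1201 CPM with snaR-A, so that they were highest with eGFP where HSPA6 was not. Their part in the HSPA6 values was not tested.

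**Figure D2:**
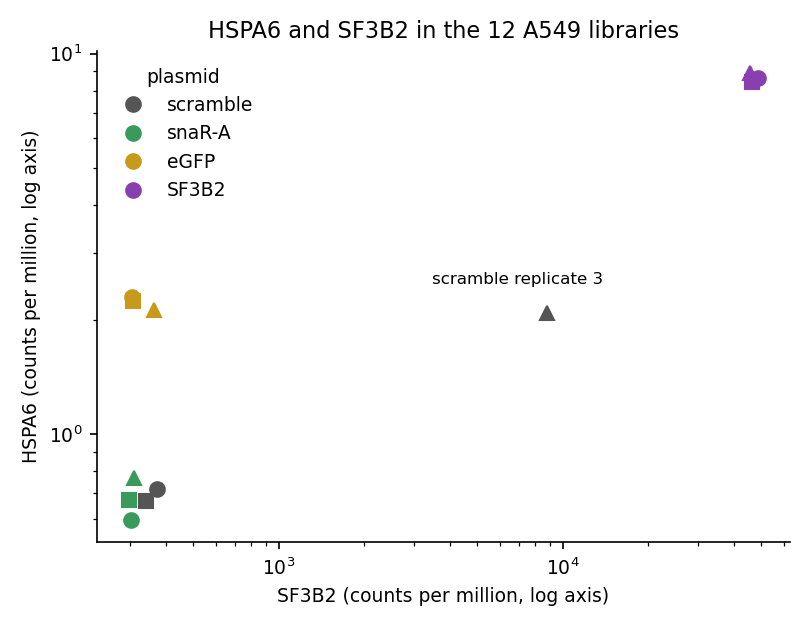
HSPA6 against SF3B2 in the 12 A549 libraries, both in CPM on log axes; color is the plasmid and shape the replicate number. Scramble replicate 3, at 8773 CPM of SF3B2 and 2.08 CPM of HSPA6, lies apart from the other scramble libraries, while the eGFP libraries have as much HSPA6 at 303 to 362 CPM of SF3B2.

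HEK293T libraries took no part in choosing HSPA6, and here the gene rose with both vectors for proteins. Against scramble it rose 2.66-fold with SF3B2 (log2 fold change 1.41, SE 0.17, adjusted p = 0.00172 by edgeR's quasi-likelihood test with Benjamini-Hochberg adjustment over all genes) and 3.25-fold with eGFP (1.70, SE 0.16, adjusted p = 0.000215). In both comparisons all 3 libraries lay above all 3 scramble libraries, as in 24.1% of all genes with SF3B2 and 28.2% with eGFP. Between SF3B2 and eGFP the log2 difference was -0.31 (SE 0.14, adjusted p = 0.261), the opposite direction to A549, although the 2 groups did not overlap, as in 13.8% of all genes in that direction. With snaR-A the difference from scramble was 0.04 (SE 0.21, adjusted p = 0.905) in HEK293T and -0.77 (SE 0.43, given without a p) in A549. The A549 value became -0.04 without scramble replicate 3. All HEK293T comparisons against scramble share the same 3 scramble libraries, which held only 67 to 73 counts of HSPA6 each. The 10 HEK293T marker genes summed to 777 to 833 CPM in scramble, 536 to 579 CPM in snaR-A, 490 to 500 CPM in eGFP and 533 to 698 CPM in SF3B2. At an adjusted p under 0.05 by the quasi-likelihood test, 1 of them was higher and 5 lower with snaR-A, 1 and 4 with eGFP, and 1 and 2 with SF3B2. Of all genes 17.8% were higher and 18.5% lower, 22.9% and 25.8%, and 16.8% and 17.5%. The neurofilament gene NEFM, the most abundant of them in scramble, had a mean of 371 CPM in scramble and fell to 181 CPM with snaR-A, 130 CPM with eGFP and 190 CPM with SF3B2. EYA1, the only one called higher, rose by 0.47, 0.38 and 0.54 on the log2 scale, and the medians of the list were -0.16, -0.14 and 0.08. Their part in the HSPA6 values was not tested in HEK293T. In bulk RNA, fewer cells of a type and less RNA per cell cannot be told apart.

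HSPA1A, read with the limit above, stood at 105, 100 and 120 CPM with scramble in A549, at 103, 96.2 and 107 CPM with snaR-A, at 111, 112 and 121 CPM with eGFP and at 157, 162 and 161 CPM with SF3B2. Only the SF3B2 libraries lay outside the range of the others, by 1.41-fold over eGFP (log2 0.49, SE 0.05, a description). In HEK293T the gene was listed between 0.267 and 1.76 CPM in 11 of the 12 libraries and at 5.55 CPM in eGFP replicate 3, the library with A549 markers. Its log2 difference between HEK293T eGFP and scramble was 1.52 (SE 0.80, adjusted p = 0.154) and turned to -0.19 without that replicate, and it was 1.98 (adjusted p = 0.0484) without eGFP replicate 1. Against scramble, SF3B2 gave 0.43 (SE 0.57, adjusted p = 0.581), and 0.91 (adjusted p = 0.0257) without SF3B2 replicate 1. No direction is read from HSPA1A in HEK293T.

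The constitutive HSP70 HSPA8 and the exchange factor HSPH1 rose with all 3 plasmids in HEK293T. HSPA8 stood at 949, 950 and 901 CPM with scramble, at 979, 1123 and 1142 CPM with snaR-A, at 1266, 1326 and 1327 CPM with eGFP and at 1475, 1350 and 1397 CPM with SF3B2. No library of these groups fell within the scramble range. Of all genes, 23.9% lay wholly above scramble with snaR-A, 28.2% with eGFP and 24.1% with SF3B2. HSPA8 rose by 0.60 on the log2 scale with SF3B2 (SE 0.08, adjusted p = 0.00239), by 0.49 with eGFP (SE 0.06, adjusted p = 0.000809) and by 0.22 with snaR-A (SE 0.07, adjusted p = 0.0344). The last call was lost without scramble replicate 1 (adjusted p = 0.0847), scramble replicate 3 (0.0749), snaR-A replicate 2 (0.132) or snaR-A replicate 3 (0.125). HSPH1, the HSP110 that exchanges the nucleotide of HSP70, stood at 177, 183 and 184 CPM with scramble, 212, 237 and 233 CPM with snaR-A, 271, 273 and 284 CPM with eGFP and 312, 304 and 293 CPM with SF3B2. The 4 groups did not overlap, and against scramble the shares of all genes are those given for HSPA8. It rose by 0.74 with SF3B2 (SE 0.06, adjusted p = 0.000722), by 0.61 with eGFP (SE 0.05, adjusted p = 0.000145) and by 0.33 with snaR-A (SE 0.05, adjusted p = 0.00201).

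The co-chaperones DNAJB1 and BAG3 showed the same order of groups. BAG3, which links HSP70 to autophagy of its clients, stood at 30, 29.4 and 29.5 CPM with scramble, 34.6, 37.5 and 34.9 CPM with snaR-A, 42.2, 47.6 and 42.2 CPM with eGFP and 46.8, 45.8 and 44.2 CPM with SF3B2. It rose by 0.63 with SF3B2 (SE 0.05, adjusted p = 0.000826), by 0.57 with eGFP (SE 0.05, adjusted p = 0.000249) and by 0.28 with snaR-A (SE 0.04, adjusted p = 0.00183), and its eGFP and SF3B2 libraries overlapped. DNAJB1, the HSP40 partner of HSP70, stood at 87.2, 88.6 and 82.9 CPM with scramble, 88.2, 96.3 and 93.5 CPM with snaR-A, 109, 114 and 108 CPM with eGFP and 112, 127 and 135 CPM with SF3B2. It rose by 0.54 with SF3B2 (SE 0.08, adjusted p = 0.003) and by 0.35 with eGFP (SE 0.05, adjusted p = 0.00082). The value with snaR-A was 0.11 (SE 0.05, adjusted p = 0.081), and it passed the threshold without snaR-A replicate 1 (0.14, adjusted p = 0.0478) and with library size alone (0.21, adjusted p = 0.00491), which moved the median of all genes from -0.01 to 0.09.

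The remaining members did not share this pattern. HSP90AA1, the stress-inducible cytosolic HSP90, stood at 2461, 2676 and 2441 CPM with scramble, 2392, 2518 and 2513 CPM with snaR-A, 2610, 2679 and 2738 CPM with eGFP and 3471, 3283 and 3217 CPM with SF3B2. Only the SF3B2 libraries left the range of the others, and 24.1% of all genes had every SF3B2 library above every scramble library. It rose by 0.40 with SF3B2 against scramble (SE 0.10, adjusted p = 0.017), a call that was lost without scramble replicate 1 (adjusted p = 0.0874), scramble replicate 3 (0.0555) or SF3B2 replicate 2 (0.0512). The value was 0.08 (SE 0.08, adjusted p = 0.401) with eGFP, or 0.19 (adjusted p = 0.0417) with library size alone, and -0.02 (SE 0.06, adjusted p = 0.831) with snaR-A. HSPD1, the mitochondrial chaperonin HSP60, stood at 2135, 1720 and 1291 CPM with SF3B2, and the third library fell within the scramble range of 1228 to 1407 CPM. Its log2 difference from scramble was 0.40 (SE 0.17, adjusted p = 0.114). HSPD1 passed the threshold without SF3B2 replicate 3 (0.57, adjusted p = 0.011), by DESeq2 (0.41, adjusted p = 0.0372) and in the fit of all HEK293T libraries (0.38, adjusted p = 0.0431). With snaR-A it stood at 1165, 1210 and 1219 CPM (-0.12, SE 0.06, adjusted p = 0.19), below every scramble library, as in 26.4% of all genes. With eGFP it stood at 1197, 1194 and 1275 CPM (-0.10, SE 0.08, adjusted p = 0.339). HSPB1, the small heat shock protein HSP27, was the member that fell in HEK293T. It stood at 30.6, 32.5 and 28.7 CPM with scramble, above every library with snaR-A (25, 24.3 and 25 CPM), eGFP (21.6, 23.6 and 28.1 CPM) and SF3B2 (26.9, 22.8 and 24.9 CPM). Of all genes, 26.4% lay wholly below scramble with snaR-A, 31% with eGFP and 26.2% with SF3B2. HSPB1 fell by 0.30 with snaR-A (SE 0.05, adjusted p = 0.003), by 0.33 with eGFP (SE 0.10, adjusted p = 0.0301) and by 0.29 with SF3B2 (SE 0.08, adjusted p = 0.0287). The eGFP call was lost without eGFP replicate 1 or 2 or scramble replicate 1 or 2 (adjusted p 0.0604 to 0.0938), and the SF3B2 call without scramble replicate 1 or 2 or SF3B2 replicate 2 (0.0964 to 0.112).

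**Figure D3:**
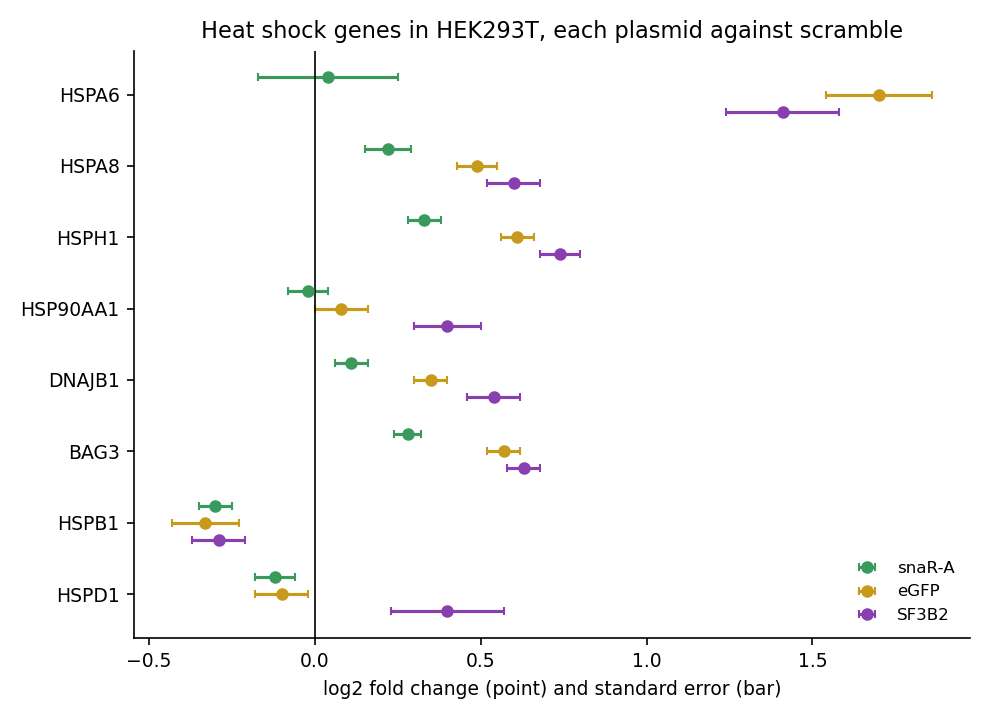
Log2 fold changes of 8 members in HEK293T, each plasmid against the same 3 scramble libraries; points are the fitted values and bars 1 standard error. HSPA6 lies at 1.70 with eGFP and 1.41 with SF3B2 but at 0.04 with snaR-A, and HSPB1 lies below 0 with all 3 plasmids.

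By count, a member was called where its adjusted p was under 0.05, in either direction and with no limit on the fold, and 9 of the 10 members were tested in each comparison (8 where HSPA6 is left out). In HEK293T, SF3B2 against scramble gave 6 members higher and 1 lower, beside 16.8% of all genes tested higher and 17.5% lower. For eGFP against scramble there were 5 higher and 1 lower, beside 22.9% and 25.8% of all genes, and the same 6 members were called without eGFP replicate 3. With snaR-A there were 3 higher and 1 lower, beside 17.8% and 18.5%. The median log2 fold change of the members was 0.54, 0.49 and 0.04 in these comparisons, and -0.01 over all genes in each. SF3B2 against eGFP in HEK293T gave no call among the members by the quasi-likelihood test, with 2 members at an unadjusted p under 0.05 (HSP90AA1 at 0.30, SE 0.09, and HSPD1 at 0.48, SE 0.18), where 21.7% of all genes had one. There was 1 call by edgeR's exact test and there were 2 by DESeq2, and by the quasi-likelihood test 0.0398% of all genes were higher and 0.133% lower.

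In A549, snaR-A against scramble gave no call among the 8 members other than HSPA6 by the quasi-likelihood test, exact test or DESeq2, with 1 member at an unadjusted p under 0.05 (HSPH1 at -0.13, SE 0.05), where 6.14% of all genes had one, beside 0.00923% of all genes called higher and 0.00923% lower. eGFP against scramble gave none among 8 members by the same tools and none at an unadjusted p under 0.05, beside 1.46% higher and 0.0324% lower. Neither count changed without scramble replicate 3. HSPA8 in A549 ranged from 2054 CPM to 2333 CPM over the 12 libraries, HSPH1 from 415 CPM to 478 CPM, HSP90AA1 from 3817 CPM to 4497 CPM, and BAG3 from 92.6 CPM to 117 CPM. In these 4 genes every snaR-A library lay below every scramble library, without a call, as in 6.21% of all genes.

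With SF3B2 in A549, 4 members including HSPA6 had an adjusted p under the threshold and were higher than with eGFP, and none was lower, where 3.42% of all genes were higher and 3.6% lower. The count is a description and no test, because this contrast chose HSPA6. They were HSPA6 and HSPA1A, with the values above, BAG3 at 0.25 (SE 0.06) and DNAJB1 at 0.22 (SE 0.04). Only HSPA6 and HSPA1A were under the threshold without any 1 of the SF3B2 libraries, without eGFP replicate 2 or with the replicate block. BAG3 was also lost without eGFP replicate 1 and DNAJB1 with library size alone, while without eGFP replicate 3 HSPB1 and HSPH1 joined the 4. DNAJB1 stood at 173, 176 and 170 CPM with SF3B2 and at 154, 153 and 145 CPM with eGFP. BAG3 stood at 117, 116 and 114 CPM with SF3B2 and at 92.6, 95.5 and 106 CPM with eGFP. Neither pair of groups overlapped, as in 14.4% of all genes in that direction. Against scramble 1 member, HSPA1A, was under the threshold and higher and none lower, beside 0.214% and 0.0186% of all genes. No member was under it without any 1 of the other 5 libraries (scramble replicates 1 and 2 and the SF3B2 libraries), with library size alone or with the replicate block. Without scramble replicate 3 there were 5 higher (HSPA6, HSPA1A, BAG3, DNAJB1 and HSPB1) and 1 lower (HSPD1), where 10.9% of all genes were higher and 11% lower. HSPB1 stood at 145, 152 and 129 CPM with SF3B2 in A549, against 92.1, 87.3 and 127 CPM with eGFP and 103, 97.2 and 121 CPM with scramble, a direction opposite to its fall in HEK293T. These counts take part in what chose HSPA6, and nothing is read from them.

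**Figure D4:**
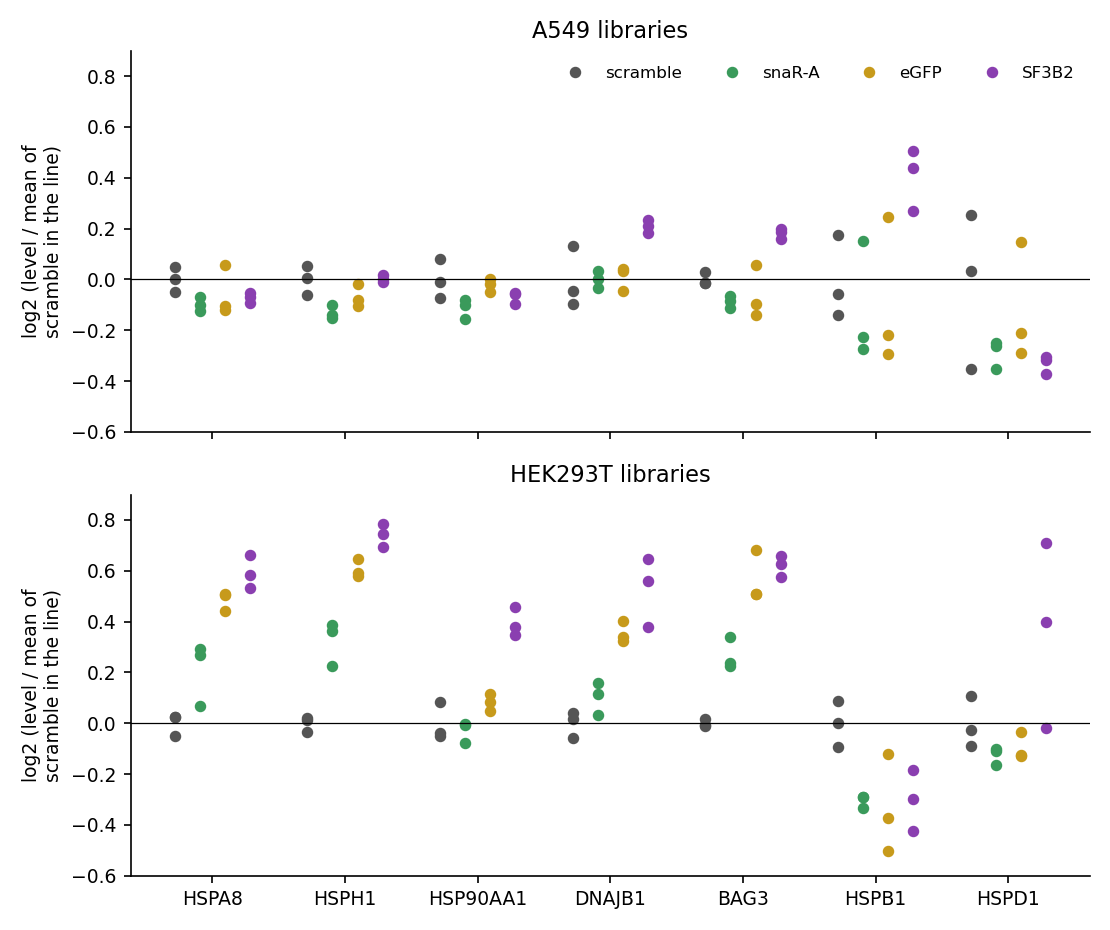
Level of 7 members in each library, as log2 of the level over the scramble mean of the same line; points are libraries and color is the plasmid. In HEK293T the HSPA8, HSPH1 and BAG3 libraries of snaR-A, eGFP and SF3B2 lie above scramble and those of HSPB1 below, while in A549 those of HSPA8, HSPH1 and HSP90AA1 lie close to 0.

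Whether the snaR-A effect differed between the lines was tested as an interaction over 12 libraries. It was larger in HEK293T for 3 of the 8 tested members other than HSPA6 and smaller for none, beside 6.64% of all genes larger and 4.79% smaller. The difference was 0.48 for HSPH1 (adjusted p = 0.00276), 0.38 for BAG3 (adjusted p = 0.00253) and 0.33 for HSPA8 (adjusted p = 0.0296) on the log2 scale. The same 3 were called without A549 scramble replicate 3, where 7.99% of all genes were larger and 8.75% smaller. HSPA8 lost the call when any of 10 of the 12 libraries was left out (adjusted p 0.07 to 0.176), with RLE scaling (0.0625) and without the count filter (0.0787). The effects of SF3B2 and eGFP were not tested for a difference between the lines, because the A549 libraries chose HSPA6.

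Between the lines, all 8 tested members other than HSPA6 were lower in HEK293T scramble than in A549 scramble and none was higher, beside 38.2% of all genes lower and 39.3% higher. The log2 differences were -2.10 for HSPA6 (SE 0.44, given without a p since A549 libraries chose it), -1.75 for HSPB1 (SE 0.09), -1.72 for BAG3 (SE 0.05), -1.28 for HSPH1 (SE 0.06), -1.20 for HSPA8 (SE 0.08), -0.74 for DNAJB1 (SE 0.07), -0.69 for HSP90AA1 (SE 0.10) and -0.57 for HSPD1 (SE 0.15, adjusted p = 0.00872). The value of HSPA6 was -1.37 without A549 scramble replicate 3, and the 8 others were still called. Scaling by library size alone moved the median of all genes in this comparison from 0.01 to 0.41, and there HSPD1 was at -0.17 (adjusted p = 0.239) and lost its call, while the others kept theirs. HSPA1A was lower by 6.99 (SE 0.17), which its shared reads leave unread.

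Per transcript length, the order of levels within a line was nearly the same in both lines. In A549 scramble, HSP90AA1 stood at 1318 CPM per kilobase, HSPA8 at 990, HSPD1 at 903, HSPB1 at 138, HSPH1 at 87.9, DNAJB1 at 66.8, BAG3 at 39.8 and HSPA6 at 0.491 CPM per kilobase (0.295 without scramble replicate 3). In HEK293T scramble, HSP90AA1 stood at 783 CPM per kilobase, HSPD1 at 582, HSPA8 at 412, HSPB1 at 39.4, DNAJB1 at 38.5, HSPH1 at 34.6, BAG3 at 11.6 and HSPA6 at 0.11 CPM per kilobase. HSPA6 was thus the lowest of these 8 in both lines. The lengths are those of the canonical transcripts of GENCODE 44.

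**Figure D5:**
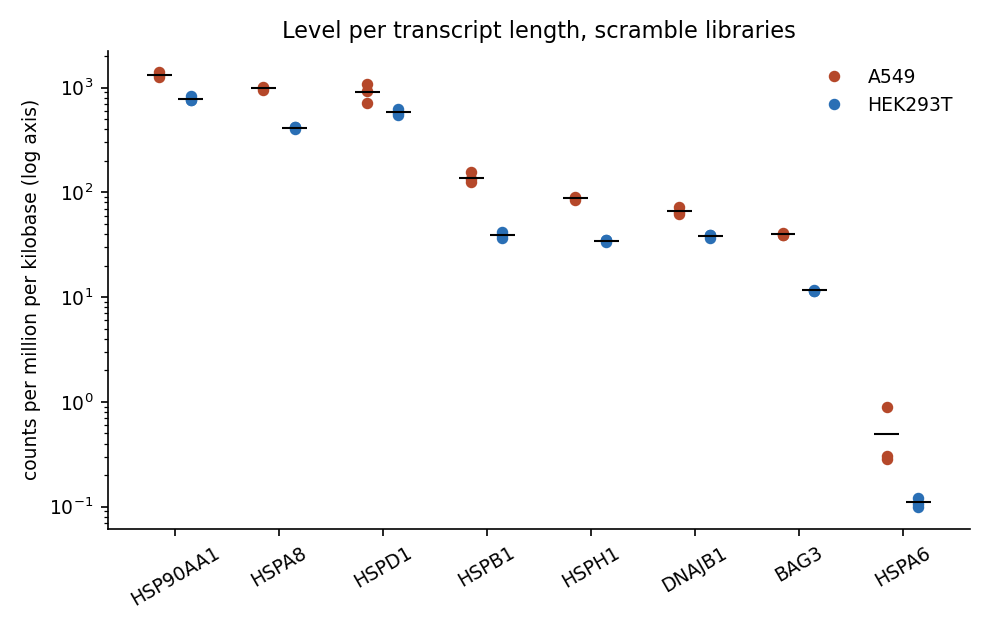
Level of 8 members in the scramble libraries, in CPM per kilobase of transcript on a log axis; points are libraries and black lines the means of 3 libraries in each line. HSPA6 lies at a mean of 0.491 in A549 (0.295 without scramble replicate 3) and 0.11 in HEK293T, below all other members shown.

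Other chaperone genes, from lists chosen with these data known, were counted in the same HEK293T fits. Their counts are to be read against the shares of all genes higher and lower, which were 17.8% and 18.5% with snaR-A, 16.8% and 17.5% with SF3B2, and 22.9% and 25.8% with eGFP (21.8% and 24.7% without eGFP replicate 3). The median over all genes was -0.01 in each. A count near these shares is no result about a list. Of 14 further J-domain proteins 12 were tested, and 4 rose and none fell with snaR-A, 4 rose and 2 fell with SF3B2, and 6 rose and 1 fell with eGFP (5 and 2 without eGFP replicate 3). The shares of this list that rose were 33.3%, 33.3% and 50%, and its medians 0.10, 0.18 and 0.11. DNAJA1, an HSP40 that is itself heat inducible, rose by 0.40 with snaR-A (SE 0.06, adjusted p = 0.00121), 0.86 with SF3B2 (SE 0.07, adjusted p = 0.000834) and 0.69 with eGFP (SE 0.06, adjusted p = 0.000161). Its scramble libraries held 205 to 214 CPM and its snaR-A libraries 255 to 290 CPM. DNAJB2 rose by 0.49 with snaR-A and 0.50 with eGFP, and DNAJA3, a mitochondrial J-domain protein, fell by 0.60 with SF3B2. In A549 DNAJA1 was instead lower with SF3B2 than with eGFP, at -0.28 (SE 0.04, a description).

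Of 6 other BAG proteins and exchange factors, all tested, 1 rose with snaR-A, 2 with SF3B2 and 3 with eGFP, and none fell. BAG1 rose in all 3, by 0.43, 0.35 and 0.59. Of 10 other HSP70 and HSP110 genes 8 were tested, with 0 higher and 1 lower for snaR-A, 4 and 1 for SF3B2, and 3 and 3 for eGFP (2 and 3 without eGFP replicate 3). Mitochondrial HSPA9 rose by 0.52 with SF3B2, while HSPA12B fell by 0.82 with SF3B2 and by 0.97 with eGFP. Of 14 HSP90 co-chaperones and relatives 13 were tested, with 0 higher and 2 lower for snaR-A, 5 and 1 for SF3B2, and 1 and 3 for eGFP (2 and 3 without eGFP replicate 3). PPID rose by 0.62 and CDC37 by 0.39 with SF3B2, and PTGES3, the p23 co-chaperone, fell by 0.22 with snaR-A and by 0.30 with eGFP. Among 9 other chaperonin genes CCT2 rose in all 3 comparisons (0.23, 0.24 and 0.27), and CCT8 fell by 0.21 with eGFP.

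Of 10 other small heat shock proteins 5 were tested, and 2 fell with snaR-A, 2 with SF3B2 and 1 with eGFP. CRYAB, the lens and muscle chaperone alpha-B crystallin, fell by 2.38 with snaR-A (SE 0.32, adjusted p = 0.00114), fell by 2.75 with SF3B2 (SE 0.24, adjusted p = 0.000867) and fell by 2.18 with eGFP (SE 0.69, adjusted p = 0.0324), from the low level of 0.349 to 0.519 CPM in scramble. Without eGFP replicate 3 it fell by 3.68 with eGFP (adjusted p = 0.000189). HSPB3 rose by 0.98 with eGFP, a call that was absent without eGFP replicate 3. Of 16 further stress-inducible genes bound by HSF1, which include DNAJA1 and CRYAB, 15 were tested, with 2 higher and 3 lower for snaR-A, 6 and 2 for SF3B2, and 3 and 4 for eGFP, and medians of -0.08, 0.08 and -0.03. For snaR-A (13.3% and 20%) and eGFP (20% and 26.7%) these counts lay near the shares of all genes. ZFAND2A, an arsenite- and heat-inducible regulator of the proteasome, rose by 0.55, 0.53 and 0.80. Of the 3 heat shock transcription factors listed 2 were tested, and HSF4 fell by 0.66 with SF3B2 and by 0.61 with eGFP.

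Of the chaperones of the endoplasmic reticulum all 12 were tested, with 1 higher and 4 lower for snaR-A, 2 and 3 for SF3B2, and 1 and 5 for eGFP. HSPA5, the HSP70 of that compartment known as BiP, fell by 0.33 with snaR-A, 0.31 with SF3B2 and 0.45 with eGFP, and DNAJB9 fell by 0.36 with snaR-A and 0.47 with eGFP. Among 10 metal and oxidative stress genes 8 were tested, and HMOX1, which degrades heme, rose by 0.48, 0.42 and 0.70. It was the only call of that list with snaR-A and SF3B2, and with eGFP 2 rose and none fell (1 and 1 without eGFP replicate 3). Of the interferon response genes 12 were tested for snaR-A, with 1 higher and 1 lower, 11 for SF3B2, with 2 and 2, and 13 for eGFP, with 4 and 1, and 2 and 3 without eGFP replicate 3. With snaR-A, ISG15 rose by 0.61 and IFI6 fell by 0.40. With SF3B2, XAF1 rose by 2.38 at low levels (means of 0.0413 CPM in scramble and 0.216 CPM with SF3B2), while IFI44L fell by 0.64 and IFI6 by 0.58. The A549 marker list had 3 genes called higher with eGFP and 3 with SF3B2, and without eGFP replicate 3 the first became none higher and 1 lower. Among the SF3B2 libraries these markers summed to 22 CPM in replicate 3, against 6.66 and 6.39 CPM in the others. The part of that library in the SF3B2 calls was not tested.

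In SF3B2 against eGFP in HEK293T, no gene of any of these lists was called by the quasi-likelihood test. Of all genes 0.0398% were higher and 0.133% lower there, so that this absence is no result about the lists. In A549, as a description, SF3B2 against eGFP had all 14 interferon response genes and 2 of 12 chaperones of the endoplasmic reticulum lower. Of 13 J-domain proteins 2 were higher (DNAJB2 and DNAJC5, both at 0.30) and 1 lower (DNAJA1, also on the list bound by HSF1). HSPA2 and SQSTM1 were higher at 0.19 and 0.17. Among the HEK293T markers NEFL was higher at 0.23 and LIN28B lower at -0.22. Beside these counts, 3.42% of all genes were higher and 3.6% lower. Against scramble in A549, all 14 interferon response genes were called higher with eGFP, 8 of them with SF3B2 as a description, and no gene of the other lists. Of all genes, 1.46% were higher and 0.0324% lower with eGFP, and 0.214% and 0.0186% with SF3B2. Without scramble replicate 3 the eGFP counts were the same, whereas SF3B2 had 10 interferon response genes and 4 A549 markers higher and none of either lower, beside the 10.9% and 11% of all genes given above. In that setting the counts higher and lower were 2 and 4 for J-domain proteins, 0 and 1 for HSP70 genes, 2 and 4 for HSP90 and its co-chaperones, and 1 and 1 for BAG proteins and exchange factors. They were 1 and 3 for chaperonins, 3 and 2 for genes bound by HSF1, 1 and 0 for heat shock transcription factors, 1 and 4 for chaperones of the endoplasmic reticulum, 2 and 1 for metal and oxidative stress genes, and 0 and 2 for HEK293T markers, with no call among small heat shock proteins. For snaR-A against scramble in A549, none of the genes of the lists was called by the quasi-likelihood test, where 0.00923% of all genes were higher and 0.00923% lower. That absence is near these shares and is no result about the lists.

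By Pearson correlation of log2 CPM with HSPA6 over the 12 A549 libraries, the 5 most alike genes among 12167 were HSPA1A (0.961), CYB5D2 (0.943), SHISA4 (0.933), SLC26A11 (0.911) and GPR157 (0.907). SF3B2, the gene on the plasmid, was at 0.865, DNAJB1 at 0.868, BAG3 at 0.767, HSPB1 at 0.724 and HSPH1 at 0.395, while HSP90AA1 was at -0.095, HSPA8 at -0.165 and HSPD1 at -0.412. In these 5 genes, as in HSPA6, the SF3B2 group had the highest mean, for example 160 CPM for HSPA1A and 16.7 CPM for CYB5D2. That follows from the choice, since HSPA6 was chosen on its level with SF3B2 and these genes for their correlation with it. Nothing is read from it. Over the 12 HEK293T libraries the 5 most alike among 12411 were FRMPD1 (0.978), RBM48 (0.971), TNFRSF10D (0.968), ALDH1L1 (0.965) and LARP4B (0.961). All were highest with eGFP, as HSPA6 was in HEK293T, which follows from picking them for their correlation with it. BAG3 was at 0.892, HSPA8 at 0.877, DNAJB1 at 0.862, HSPH1 at 0.858 and HSP90AA1 at 0.620, whereas SF3B2 was at 0.437, HSPD1 at 0.247 and HSPB1 at -0.521. These values describe 12 libraries that share their groups, and the 2 lists of 5 have no gene in common.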

How the data were processed

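RNA was depleted of rRNA, enriched for poly(A) and made into stranded libraries. The authors trimmed reads with Trim Galore and quantified them with Salmon on the transcriptome (hg38 per the labels; the annotation of the index is not given in the sources used here), and deposited estimated counts per Ensembl gene, of which 51% are not whole. Here the counts were rounded to whole numbers. Genes with low counts were removed by filterByExpr, libraries were scaled by TMM, and the groups compared were fitted with edgeR 4.0.16 (R 4.3.3; glmQLFit and glmQLFTest), with Benjamini-Hochberg adjustment over all genes tested. Symbols came from GENCODE 44 (54903 identifiers matched). Members and lists were chosen with earlier results of these data known. The genes named are all members, HSPA7, SF3B2, from each list at most 3 called genes with the largest change, and the 5 genes most like HSPA6 in each line (mean of at least 1 log2 CPM). The lists were heat shock transcription factors, further HSP70 and HSP110, J-domain, HSP90, small heat shock, BAG and chaperonin genes, genes bound by HSF1, endoplasmic reticulum chaperones, metal and oxidative stress genes, interferon response genes, and markers of A549 and of HEK293T. In data simulated for HEK293T snaR-A against scramble (22667 genes, 200 changed by a log2 fold of 1), 198 were recovered and 14 unchanged genes called. In the simulated interaction (24784 genes), 176 of 200 were recovered and 20 unchanged genes called. Both simulations gave every gene the same dispersion and changed only genes above a count limit. Recovery of smaller changes, or with libraries that stand apart, was not simulated. Alternatives were edgeR's exact test, DESeq2 1.42.0, other scalings and filters, all libraries in one fit, a replicate block, near-identical copies summed, and each library left out.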

Additional observations from a re-analysis of the deposited data

Results flagged for a closer look

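The snaR-A effect was larger in HEK293T than in A549 by 0.33 (log2) for HSPA8, 0.48 for HSPH1 and 0.38 for BAG3, by the interaction test. The call of HSPA8 was lost with RLE scaling (adjusted p = 0.0625 by edgeR's quasi-likelihood test), without the count filter (0.0787) and with any of 10 of the 12 libraries left out (0.07 to 0.176).

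In several members every library of a group lay on one side of its control in HEK293T and on the other side in A549, and the difference between the lines was not tested. For SF3B2 against eGFP these were HSP90AA1 (0.30 in HEK293T, -0.03 in A549) and HSPD1 (0.48 and -0.21), 2 of the 8 tested members other than HSPA6, where 7.23% of all genes tested in both lines did so. HSPA6 (-0.31 and 1.98) is not counted, because its A549 value is what chose it. For SF3B2 against scramble they were HSPA8 (0.60 and -0.06) and HSPB1 (-0.29 and 0.41), 2 of the same 8 members beside 5.27% of all genes. For eGFP against scramble no member did, beside 4.22% of all genes.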

How the results depend on the processing

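Outside the SF3B2 comparisons of A549, 1048 log2 fold changes of members under the alternatives kept their direction and side of the threshold, 33 lost a call, 13 gained one and 30 reversed. No reversed value among these was past the threshold. With library size alone the median of all genes moved to -0.18 for SF3B2 against eGFP in HEK293T, and HSPA8 (-0.07), HSPH1 (-0.04), HSPB1 (-0.15) and BAG3 (-0.13) turned below 0 there. The same scaling turned HSP90AA1 for snaR-A (0.08) and HSPD1 for eGFP (0.01) in HEK293T, and DNAJB1 for snaR-A (0.06) and HSP90AA1 for eGFP (0.01) in A549, all against scramble. HSPA1A summed with its copy reversed for snaR-A in HEK293T (0.12) and in the interaction (0.20), and HSPH1 without the count filter for SF3B2 against scramble in A549 (-0.01). The cause was not tested.

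Members called with a library left out ranged from 3 to 5 for snaR-A, 0 to 1 for SF3B2 against eGFP, 5 to 8 for SF3B2 against scramble and 5 to 6 for eGFP in HEK293T, and from 2 to 6 for SF3B2 against eGFP and 0 to 6 for SF3B2 against scramble in A549, the 6 without scramble replicate 3. Leaving out a library reversed HSPA6 (-0.13 to 0.16) and HSP90AA1 (-0.05 to 0.02) for snaR-A in HEK293T, HSPA1A (-1.61 to 0.61) and HSPB1 (-0.07 to 0.13) for SF3B2 against eGFP, HSPA1A (-0.10 to 0.91) for SF3B2 and (-0.19 to 1.98) for eGFP against scramble, and in A549 DNAJB1 (-0.04 to 0.07) for snaR-A, HSPA8 (-0.04 to 0.06) for SF3B2 against eGFP, HSPH1 (-0.04 to 0.04) for SF3B2 against scramble, and HSP90AA1 (-0.06 to 0.02), DNAJB1 (-0.03 to 0.07), HSPB1 (-0.27 to 0.03) and HSPD1 (-0.26 to 0.05) for eGFP. HSPA1A ranged from -0.30 to 0.04 in the interaction.

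For SF3B2 against eGFP in HEK293T, 1 member was called by edgeR's exact test, 2 by DESeq2 and 1 in the fit of all HEK293T libraries. For SF3B2 against scramble in A549 the count was 4 by the exact test, 4 by DESeq2 and 0 with library size alone. It was 2 without the count filter, 2 with at least 10 counts in every library and 2 in the fit of all A549 libraries. Between libraries of the same replicate number, the median correlation of deviations was -0.0153 in HEK293T (-0.2 to 0.179) and -0.0165 in A549 (-0.394 to 0.234). These values show no common pairing but cannot tell whether some libraries were handled together. A replicate block left 2 calls for SF3B2 against eGFP and 0 for SF3B2 against scramble in A549, and in HEK293T 5 for SF3B2 and 3 for snaR-A against scramble. In HEK293T against scramble, the block ended the calls of HSPA8 for snaR-A (adjusted p = 0.0724), HSP90AA1 (0.0592) and HSPB1 (0.061) for SF3B2, omitting the count filter those of HSPA8 for snaR-A (0.0535) and HSP90AA1 for SF3B2 (0.0542), and library size alone that of HSPB1 for eGFP (0.0704). HSPA6 rests on 67 to 96 counts in HEK293T scramble and snaR-A, which limits its precision there.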
